A study of Homo sapiens with 6 samples.

Results

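ATF4 stress response regulators and effectors are followed here as 10 genes in TC32, an Ewing sarcoma cell line whose defining oncogene is a fusion of EWSR1 with FLI1. The genes were taken by symbol (ATF4, DDIT3, TRIB3, CHAC1, ATF3, ATF5, CEBPB, DDIT4, SESN2 and ASNS). No threshold on a measured value was used, but earlier results of these data were known when they were chosen. All 10 were found among the 26931 gene symbols listed. Each stood on 1 row with a successful quantification in every library, on 8 chromosomes between them, and all 10 passed the filter on low values that left 13043 genes for testing. The cells had been transfected with an siRNA against EWSR1 (siEWSR1), an siRNA against FLI1 (siFLI1) or a control siRNA (siNeg), and total RNA was taken 48 h later for RNA sequencing. Each of the 3 groups had 2 libraries, and all 6 came from transfected cells of the same line. Which part of EWSR1 or FLI1 each siRNA matches was not known here, and a gene total adds the reads of the normal transcripts to those of a fusion. The labels do not say whether the libraries of a group came from separate cultures, so p-values measure the spread between these libraries, which may be technical.

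ATF4 is a basic leucine zipper (bZIP) transcription factor at the centre of the integrated stress response. Kinases that sense amino acid shortage, misfolded protein in the endoplasmic reticulum (ER), viral RNA or heme loss phosphorylate the initiation factor eIF2, which lowers general translation while ATF4 mRNA, through its upstream open reading frames, is translated more. ATF4 then pairs with C/EBP and other bZIP proteins at composite promoter elements and raises genes of amino acid supply, of growth restraint and, when stress lasts, of cell death. ATF4 protein, eIF2 phosphorylation and transcription rates were not measured here, so every value below is an mRNA level.

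All 10 genes were lower with siEWSR1 than with siNeg, and all 10 were lower with siFLI1 than with siNeg. In both comparisons each gene's 2 libraries with the targeting siRNA lay below both siNeg libraries, as did those of 40.7% of tested genes with siEWSR1 and 39.1% with siFLI1. Levels are FPKM, sequenced fragments scaled by the length of the transcript and the size of the library, and the test was limma's moderated test on log2(FPKM + 0.5) over all 13043 genes, with Benjamini-Hochberg adjustment and a threshold of 0.05. Lower calls on that test covered 31% of all tested genes with siEWSR1 and 29.6% with siFLI1, so a lower call alone was common, and 26.2% of tested genes were lower with both siRNAs. The sizes were less common. With each siRNA 9 of the 10 genes were at least 2-fold lower, against 4.59% of tested genes in either comparison. At least 4-fold lower were 4 of the 10, against 0.314% of tested genes with siEWSR1 and 0.291% with siFLI1. Because the 10 genes were chosen with earlier results of these data known, these shares describe the genes and do not test them as a set. The median log2 change of the 10 genes was −1.67 with siEWSR1 and −1.56 with siFLI1, where the medians over all tested genes were 0.0071 with siEWSR1 and 0.041 with siFLI1. These are changes in a share of the RNA of bulk cultures, in which fewer cells of a type and less RNA per cell cannot be told apart. The siNeg libraries serve both comparisons, so agreement between them is not independent.

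**Figure D1:**
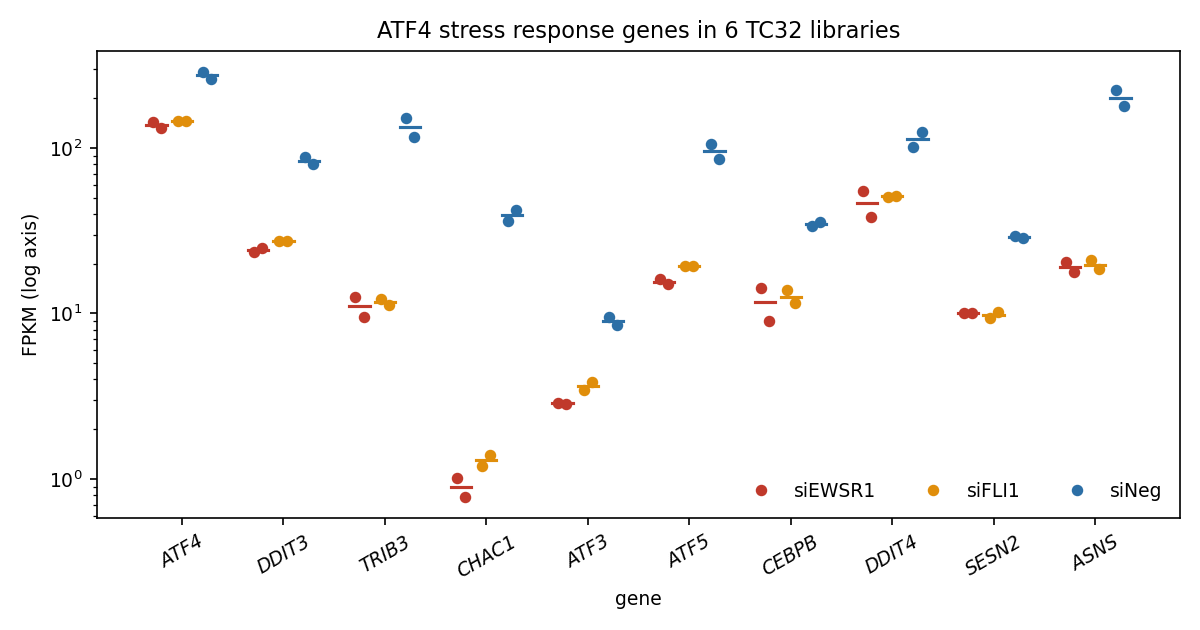
FPKM (log axis) of the 10 genes in each of the 6 libraries, with siEWSR1, siFLI1 and siNeg from left to right; points are libraries and bars are group means. The siNeg points lie above all siEWSR1 and siFLI1 points for every gene, with the widest gap for CHAC1 and the narrowest for ATF4.

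The targeted genes were read first as a check of the labels. EWSR1 stood at 34.6 and 32.3 FPKM with siEWSR1, at 51.2 and 50.2 FPKM with siFLI1 and at 46.5 and 47.2 FPKM with siNeg, a log2 change of −0.48 ± 0.06 (SE) with siEWSR1 (limma, adjusted p = 0.000444). FLI1 stood at 10.4 and 10.6 FPKM with siEWSR1, at 8.98 and 8.56 FPKM with siFLI1 and at 10.9 and 10.9 FPKM with siNeg, a log2 change of −0.29 ± 0.06 with siFLI1 (limma, adjusted p = 0.00423) and of −0.04 with siEWSR1 (adjusted p = 0.534). Each targeted gene was thus lowest in its own group. All 12 Ewing sarcoma markers examined, CD99 and NKX2-2 among them, averaged at least 1 FPKM in every group, and their summed level was 675–825 FPKM with siEWSR1, 723–778 FPKM with siFLI1 and 1419–1421 FPKM with siNeg. Of the 8 fibroblast markers, 4 of the 5 tested rose with each siRNA and THY1 fell. Of all tested genes, 33.2% were called higher with siEWSR1 and 35.7% with siFLI1. PDGFRA and POSTN, among the 4, were below 1 FPKM in both siNeg libraries. They passed the filter on low values through the targeting libraries alone, so their rise was partly set by the filter. The fibroblast sum was 725–796, 843–913 and 186–191 FPKM in the siEWSR1, siFLI1 and siNeg libraries, most of it COL3A1. LUM and FAP were listed at 0 in both siNeg libraries. Summed levels of 10 epithelial markers were 27.4–29.3, 31.5–31.9 and 23.9–25.2 FPKM, of 10 blood cell markers 2.08–2.51, 3.39–3.74 and 0.326–0.416 FPKM, and of 8 endothelial markers 17.9–24.1, 25.2–26.9 and 25.2–27.1 FPKM, in the same order of groups. Of the blood cell markers, CD3E, CD3D and HBB were listed at 0 in all 6 libraries. Most of that sum with the targeting siRNAs was CD34. It had 1.435 and 1.926 FPKM with siEWSR1, 3.17 and 3.02 FPKM with siFLI1, and 0.0317 and 0.057 FPKM with siNeg. Of the epithelial markers tested, ESRP1 was lower with each siRNA, and CLDN4, KRT14 and KRT18 were higher. CD34, ESRP1, CLDN4 and KRT14 each passed the filter only through the libraries in which they were high. The part of these markers in the changes of the 10 genes was not tested.

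Promoter sequence gives a view of the 10 genes that their RNA levels do not. The 250 bases before the RefSeq start of each gene (GRCh38.p14; a window was at hand for all 10) were searched on both strands for TGATGNAA, the core of the composite ATF4-C/EBP element. It occurred in 3 of the 10 windows, those of CHAC1, ATF3 and ASNS, and in 3.19% of 27305 RefSeq promoters of the same length. These 3 windows are shown because they hold the match, with the matching bases in capitals and each window written 5′ to 3′ on the strand of its gene. CHAC1 lies at chr15:40953221-40953470 on the plus strand, ATF3 at chr1:212565157-212565406 on the plus strand and ASNS at chr7:97872409-97872658 on the minus strand.
CHAC1: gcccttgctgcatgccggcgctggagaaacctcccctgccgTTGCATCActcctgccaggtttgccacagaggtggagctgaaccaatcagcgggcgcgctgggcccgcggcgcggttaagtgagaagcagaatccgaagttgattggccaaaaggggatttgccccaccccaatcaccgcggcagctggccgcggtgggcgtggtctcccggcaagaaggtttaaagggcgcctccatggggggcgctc
ATF3: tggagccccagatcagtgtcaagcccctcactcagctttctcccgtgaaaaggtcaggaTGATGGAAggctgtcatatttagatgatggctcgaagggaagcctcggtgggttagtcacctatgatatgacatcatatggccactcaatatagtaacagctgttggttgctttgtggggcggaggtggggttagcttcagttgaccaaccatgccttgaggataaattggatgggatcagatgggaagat
ASNS: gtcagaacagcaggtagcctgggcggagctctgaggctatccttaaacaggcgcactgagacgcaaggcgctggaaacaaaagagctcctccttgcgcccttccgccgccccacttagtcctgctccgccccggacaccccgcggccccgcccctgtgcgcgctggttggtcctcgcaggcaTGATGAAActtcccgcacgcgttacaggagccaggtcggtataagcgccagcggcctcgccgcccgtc
The match begins 209 bases before the start in CHAC1, where it reads on the opposite strand (TTGCATCA), 191 bases before the start in ATF3 and 68 bases before it in ASNS. An AP-1 element, TGANTCA, occurred in the windows of DDIT3 and ATF5 and in 6.6% of promoters, without overlap with a composite element. Neither the cyclic AMP response element TGACGTCA (1.77% of promoters), nor GGAAGGAA, a repeat of the ETS core to which FLI1 binds (2.99%), nor the ER stress element (0.0806%) occurred in any of the 10 windows. Windows were at hand for 9668 of the 13043 tested genes, and among these the shares were 1.35% for TGATGNAA, 3.64% for TGANTCA, 3.06% for TGACGTCA, 2.84% for GGAAGGAA and 0.155% for the ER stress element. A match describes letters in this window only, and binding was not measured.

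ATF4 was the most abundant of the 10 mRNAs in every library and changed least in fold. Its FPKM was 144 and 133 with siEWSR1, 145 and 146 with siFLI1, and 288 and 262 with siNeg (hg19 chr22:39916564-39918691). The siEWSR1 and siFLI1 libraries were close to each other, and all 4 lay well below both siNeg libraries. The log2 change was −0.99 ± 0.07 (SE) with siEWSR1, a 1.98-fold lower level (limma, adjusted p = 5.58e-05), and −0.91 ± 0.07 with siFLI1, 1.89-fold lower (adjusted p = 6.33e-05). By size of decrease ATF4 ranked 635th with siEWSR1 and 742nd with siFLI1 among the tested genes, and with siEWSR1, siFLI1 and siNeg its level was at the 97.7th, 97.7th and 98.7th percentile of tested genes, so it stayed an abundant mRNA.

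DDIT3 encodes CHOP, a C/EBP-family factor that ATF4 induces and that takes part in the death arm of the response. It had 23.4 and 25.02 FPKM with siEWSR1, 27.5 and 27.6 FPKM with siFLI1, and 87.7 and 79.8 FPKM with siNeg (chr12:57910371-57914300). The highest of the 4 targeting libraries was well below the lower siNeg library. The log2 change of DDIT3 was −1.77 ± 0.07 with siEWSR1 (3.41-fold lower; limma, adjusted p = 7.48e-06) and −1.59 ± 0.07 with siFLI1 (3.0-fold lower; adjusted p = 8.34e-06). Its locus overlaps MARS, a methionyl-tRNA synthetase gene, which stood at 34.3 and 33.4 FPKM with siEWSR1, at 34.4 and 33.3 FPKM with siFLI1 and at 118 and 105 FPKM with siNeg, a log2 change of −1.70 with each siRNA (limma, adjusted p = 8.64e-06 with siEWSR1 and 7.24e-06 with siFLI1). The strand setting is not given, so reads of DDIT3 and MARS where they overlap cannot be told apart.

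ATF3, a stress-induced bZIP factor, was the least abundant of the 10 in siNeg cells. It had 2.89 and 2.85 FPKM with siEWSR1, 3.46 and 3.84 FPKM with siFLI1, and 9.49 and 8.55 FPKM with siNeg (chr1:212738676-212794119). The log2 change was −1.50 ± 0.08 with siEWSR1 (2.82-fold lower; limma, adjusted p = 2.75e-05) and −1.20 ± 0.08 with siFLI1 (2.30-fold lower; adjusted p = 5.08e-05). The window before the RefSeq start used here carries the composite element printed above, and any other start of ATF3 was not searched.

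ATF5, a close relative of ATF4 that is likewise controlled through upstream reading frames and acts in the mitochondrial stress response, had the largest log2 changes among the 5 transcription factors. It had 16.1 and 15.0 FPKM with siEWSR1, 19.4 and 19.2 FPKM with siFLI1, and 105 and 86.3 FPKM with siNeg (chr19:50431959-50437193). The 4 targeting libraries were close to each other, and the siNeg libraries stood far above them. ATF5 had a log2 change of −2.57 ± 0.10 with siEWSR1 (5.96-fold lower; limma, adjusted p = 7.60e-06) and of −2.27 ± 0.10 with siFLI1 (4.83-fold lower; adjusted p = 8.90e-06). Of the genes that overlap it, the nucleoporin gene NUP62 had 30.5 and 28.3 FPKM with siEWSR1, 30.1 and 29.5 FPKM with siFLI1 and 27.6 and 28.5 FPKM with siNeg, with log2 changes of 0.07 with siEWSR1 (limma, adjusted p = 0.356) and 0.09 with siFLI1 (adjusted p = 0.229). With quantile normalization NUP62 was called higher with siEWSR1 (0.18, adjusted p = 0.026). IL4I1, which also overlaps ATF5, was at 0.0320–0.653 FPKM in the 6 libraries.

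CEBPB, a C/EBP factor that can pair with ATF4 at composite elements, had the largest standard error of the 10. It had 14.4 and 8.98 FPKM with siEWSR1, 13.8 and 11.5 FPKM with siFLI1, and 34.0 and 35.7 FPKM with siNeg (chr20:48807120-48809227). The siEWSR1 libraries spanned the siFLI1 ones, and all 4 stayed below siNeg. The log2 change was −1.57 ± 0.20 with siEWSR1 (2.98-fold lower; limma, adjusted p = 0.000705) and −1.43 ± 0.20 with siFLI1 (2.70-fold lower; adjusted p = 0.00101). Its antisense neighbour CEBPB-AS1 was at 0.108–0.487 FPKM in the 6 libraries.

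TRIB3 encodes a pseudokinase that ATF4 and CHOP induce and that restrains both ATF4 and AKT, a feedback arm of the response. It had 12.6 and 9.46 FPKM with siEWSR1, 12.2 and 11.3 FPKM with siFLI1, and 151 and 117 FPKM with siNeg (chr20:361273-378203). The 4 targeting libraries overlapped each other and stood an order of magnitude below siNeg. TRIB3 had a log2 change of −3.55 ± 0.16 with siEWSR1 (11.7-fold lower; limma, adjusted p = 1.41e-05), the 10th lowest log2 change of all tested genes, and of −3.45 ± 0.16 with siFLI1 (10.9-fold lower; adjusted p = 1.26e-05), the 13th lowest.

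CHAC1, an enzyme that breaks down glutathione, changed most of the 10 genes. It had 1.01 and 0.781 FPKM with siEWSR1, 1.20 and 1.40 FPKM with siFLI1, and 36.0 and 42.4 FPKM with siNeg (chr15:41245636-41248717). The deposited 95% bounds of the siEWSR1 values were 0.722–1.30 and 0.520–1.04 FPKM, and even the upper ones are far from the siNeg values. The log2 change was −4.83 ± 0.12 with siEWSR1 (28.5-fold lower; limma, adjusted p = 2.58e-06), the 2nd lowest of all tested genes, and −4.46 ± 0.12 with siFLI1 (22.03-fold lower; adjusted p = 2.43e-06), the 5th lowest. The pseudocount of 0.5 FPKM understates the change of a gene this low: on the untransformed means CHAC1 kept 2.28% of its siNeg level with siEWSR1 and 3.31% with siFLI1. Its level stood at the 2.2nd percentile of tested genes with siEWSR1, at the 5.9th with siFLI1 and at the 87.5th with siNeg.

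ASNS, asparagine synthetase, the textbook target by which ATF4 activity is read in amino acid shortage, was next to ATF4 in abundance in siNeg cells. It had 20.5 and 17.8 FPKM with siEWSR1, 21.0 and 18.5 FPKM with siFLI1, and 223 and 180.3 FPKM with siNeg (chr7:97481429-97501854). The siEWSR1 and siFLI1 libraries overlapped and stood far below siNeg. The log2 change of ASNS was −3.36 ± 0.12 with siEWSR1 (10.3-fold lower; limma, adjusted p = 7.05e-06), the 13th lowest change, and −3.32 ± 0.12 with siFLI1 (9.97-fold lower; adjusted p = 5.93e-06), the 14th lowest. Its window holds the composite element nearest to the start among the 3 printed.

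DDIT4 (REDD1) and SESN2 (sestrin 2) restrain the growth kinase mTORC1, DDIT4 through the TSC complex and SESN2 through GATOR2 and leucine sensing. DDIT4 had 55.1 and 38.3 FPKM with siEWSR1, 50.8 and 51.1 FPKM with siFLI1, and 101 and 125 FPKM with siNeg (chr10:74033677-74035797). Its log2 change was −1.28 ± 0.17 with siEWSR1 (2.42-fold lower; limma, adjusted p = 0.00092) and −1.13 ± 0.17 with siFLI1 (2.19-fold lower; adjusted p = 0.0015). One siEWSR1 library of DDIT4 was above both siFLI1 libraries and the other below both, and all 4 were below siNeg. SESN2 was steadier between libraries. It had 10.0 and 10.1 FPKM with siEWSR1, 9.37 and 10.1 FPKM with siFLI1, and 29.4 and 28.7 FPKM with siNeg (chr1:28585963-28609002), with log2 changes of −1.49 ± 0.06 with siEWSR1 (2.80-fold lower; limma, adjusted p = 9.39e-06) and −1.52 ± 0.06 with siFLI1 (2.88-fold lower; adjusted p = 7.21e-06).

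**Figure D2:**
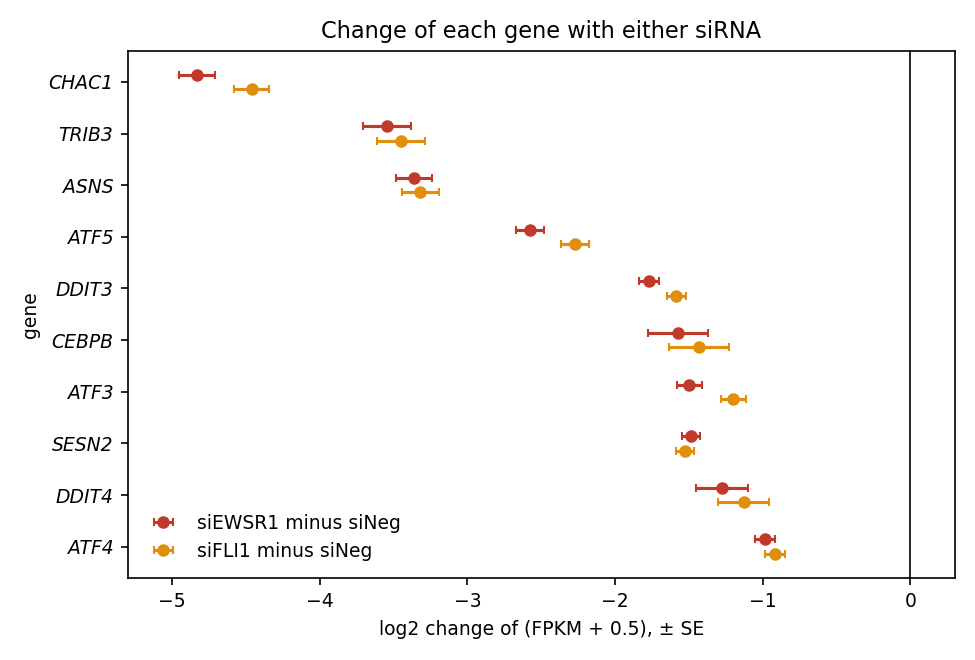
Log2 change of each of the 10 genes against siNeg with its SE as the bar, siEWSR1 drawn above siFLI1 and the genes in order of their change with siEWSR1, on the log2(FPKM + 0.5) scale. All points lie below 0, from −4.83 for CHAC1 with siEWSR1 to −0.91 for ATF4 with siFLI1.

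The order of the genes by level differed between the groups. With siEWSR1 the order of mean FPKM was ATF4 at 138, DDIT4 at 46.7, DDIT3 at 24.2, ASNS at 19.1, ATF5 at 15.6, CEBPB at 11.7, TRIB3 at 11.04, SESN2 at 10.0, ATF3 at 2.87 and CHAC1 at 0.895, and CEBPB, TRIB3 and SESN2 overlapped. With siFLI1 it was ATF4 at 145, DDIT4 at 50.9, DDIT3 at 27.5, ASNS at 19.7, ATF5 at 19.3, CEBPB at 12.7, TRIB3 at 11.7, SESN2 at 9.76, ATF3 at 3.65 and CHAC1 at 1.30, and ASNS overlapped ATF5 as CEBPB did TRIB3. With siNeg it was ATF4 at 275, ASNS at 202, TRIB3 at 134, DDIT4 at 113, ATF5 at 95.7, DDIT3 at 83.7, CHAC1 at 39.2, CEBPB at 34.8, SESN2 at 29 and ATF3 at 9.02, and the libraries of neighbours from TRIB3 to DDIT3 overlapped. ASNS thus stood below DDIT4 with the targeting siRNAs and above it with siNeg, and CHAC1 stood last with the targeting siRNAs. TRIB3 also stood below DDIT4 with the targeting siRNAs, but with siNeg it was above DDIT4 by the mean only. Its siNeg libraries, at 151 and 117 FPKM, overlapped those of DDIT4, at 101 and 125 FPKM. The highest mean exceeded the lowest 155-fold with siEWSR1, 112-fold with siFLI1 and 30.5-fold with siNeg.

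Set against ATF4 within the same library, most of the other genes were lower with the targeting siRNAs. Since ATF4 changed least in fold, lower mean ratios for the other genes follow from the changes given above and are no separate result. ASNS had 0.142 and 0.134 FPKM per FPKM of ATF4 with siEWSR1, 0.145 and 0.126 with siFLI1, and 0.775 and 0.688 with siNeg. For TRIB3 this ratio was 0.0876 and 0.0711 with siEWSR1, 0.0841 and 0.077 with siFLI1, and 0.525 and 0.446 with siNeg. For CHAC1 it was 0.00701 and 0.00587 with siEWSR1, 0.0083 and 0.00955 with siFLI1, and 0.125 and 0.162 with siNeg. The ratio lay below both siNeg values, without overlap, for 8 of the 9 genes with each siRNA, where the same held for 4.10% of tested genes with siEWSR1 and 5.24% with siFLI1. For ATF3 the ratio was 0.0201 and 0.0214 with siEWSR1, 0.0239 and 0.0263 with siFLI1, and 0.033 and 0.0326 with siNeg. DDIT4 was the exception, at 0.383 and 0.288 with siEWSR1, 0.351 and 0.349 with siFLI1, and 0.350 and 0.475 with siNeg, so that its groups overlapped. Differences in size between the genes were not tested.

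Among the 10, the profiles over the 6 libraries (log2 values centred per gene) were nearest for TRIB3 and ASNS, with a root mean square difference of 0.101, followed by DDIT3 and SESN2 at 0.132, and farthest for ATF4 and CHAC1 at 1.75. Over 12900 genes compared by the same measure, the profile nearest to ATF4 outside the 10 was that of KIF4B at 0.0268, then EIF1 at 0.0289 and MTHFD1L at 0.0295, and 1912 genes lay within 0.25 of ATF4. CEBPB was nearest to SMIM3 at 0.0726, CYP4F22 at 0.0751 and BCL3 at 0.0789, with 316 genes within 0.25. ASNS had 4 genes within 0.25, the nearest being PCK2 at 0.131, FLJ46906 at 0.152 and CTH at 0.155. CHAC1 had no gene within 0.25, and its nearest were the small nucleolar RNAs SNORA101B at 0.286 and SNORA65 at 0.297, and FLJ46906 at 0.525. Both small nucleolar RNAs were listed at 0 in every siEWSR1 and siFLI1 library. The pseudocount of 0.5 FPKM therefore sets the size of their change, and with it their distance to CHAC1. All these distances share the same 6 libraries, and the contrast of the siRNAs with siNeg makes up most of each profile.

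**Figure D3:**
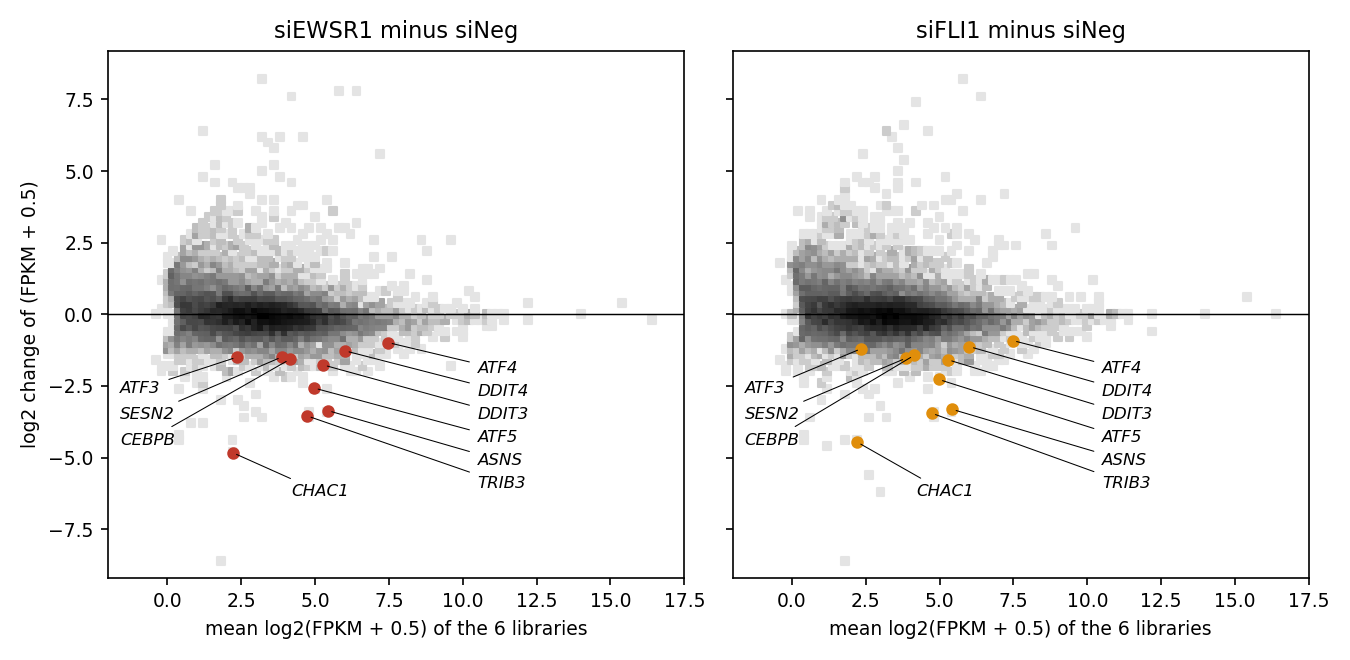
Log2 change against siNeg (vertical axis) and mean log2(FPKM + 0.5) of the 6 libraries (horizontal axis) for all 13043 tested genes, as grey squares that darken with the number of genes, with the 10 genes as labelled coloured points, siEWSR1 at left and siFLI1 at right. Most genes lie near 0, ATF4 lies at −0.99 and −0.91 near the abundant end, and CHAC1, TRIB3 and ASNS lie along the lower edge.

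The siRNAs were then set against each other directly. None of the 10 genes was called different between siEWSR1 and siFLI1 by limma with Benjamini-Hochberg adjustment, where 3.07% of tested genes were lower with siEWSR1 and 0.79% higher; 4 of the 10 had an unadjusted p below 0.05, against 23.4% of tested genes. They were ATF3, with a log2 difference of −0.30 (95% interval −0.50 to −0.10, adjusted p = 0.0993), CHAC1 with −0.37 (−0.66 to −0.08, adjusted p = 0.137), ATF5 with −0.30 (−0.53 to −0.07, adjusted p = 0.131) and DDIT3 with −0.18 (−0.34 to −0.02, adjusted p = 0.165). For these 4 genes and ATF4, 5 in all, both siEWSR1 libraries were below both siFLI1 libraries, where the same held for 32.9% of tested genes. The remaining differences were −0.07 (−0.23 to 0.09) for ATF4, −0.10 (−0.49 to 0.30) for TRIB3, −0.14 (−0.63 to 0.34) for CEBPB, −0.15 (−0.57 to 0.27) for DDIT4, 0.04 (−0.11 to 0.18) for SESN2 and −0.04 (−0.34 to 0.25) for ASNS. SESN2 had the narrowest interval and CEBPB the widest, and a p above the threshold does not show equal levels. The count of tested genes behind this background rests on single libraries: the 401 genes lower with siEWSR1 became 621 without siEWSR1 replicate 1, 126 without siEWSR1 replicate 2, 17 without siFLI1 replicate 1, 1 without siFLI1 replicate 2, 109 without siNeg replicate 1 and 119 without siNeg replicate 2, while none of the 10 genes was called in any of these.

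Upstream of ATF4, genes of eIF2 and its control had smaller median changes than the 10 genes. The list of 24 genes held the eIF2 kinases, eIF2, eIF2B and the phosphatase subunits, with related genes that included GCN1, ABCF1, NCK1, DNAJC3, KIAA0141 and OMA1. Of the 24 genes, 23 were tested, and 13 were lower and 3 higher with siEWSR1 (median log2 change −0.25), 11 lower and 4 higher with siFLI1 (median −0.17). Among the related genes, GCN1, NCK1 and KIAA0141 were called lower and ABCF1 and DNAJC3 higher with siEWSR1. The lower share was 56.5% with siEWSR1 and 47.8% with siFLI1, and over all tested genes lower calls made up 31% and higher calls 33.2% with siEWSR1, and 29.6% and 35.7% with siFLI1. EIF2S2, the beta subunit of eIF2, had 18.5 and 17.2 FPKM with siEWSR1, 18.8 and 17.9 FPKM with siFLI1, and 37.3 and 36.2 FPKM with siNeg (log2 change −1.02 with siEWSR1, limma, adjusted p = 3.31e-05, and −0.98 with siFLI1, adjusted p = 3.08e-05). PPP1R15A, or GADD34, the stress-induced phosphatase subunit that reverses eIF2 phosphorylation and is itself an ATF4 and CHOP target, had 20.2 and 18.9 FPKM with siEWSR1, 21.6 and 20.7 FPKM with siFLI1, and 36.3 and 28.6 FPKM with siNeg (−0.71 with siEWSR1, adjusted p = 0.00166, and −0.60 with siFLI1, adjusted p = 0.00335). DNAJC3, an ER co-chaperone and kinase inhibitor, rose by 0.57 with siEWSR1 and 0.56 with siFLI1 on the log2 scale. The kinase mRNAs, named here whatever their values, had small log2 changes. They were 0.13 with siEWSR1 (limma, adjusted p = 0.129) and 0.22 with siFLI1 (0.0223) for EIF2AK3 (PERK), −0.15 with siEWSR1 (0.0713) and −0.17 with siFLI1 (0.042) for EIF2AK4 (GCN2), −0.32 with siEWSR1 (0.0085) and −0.37 with siFLI1 (0.00442) for EIF2AK2 (PKR), and −0.04 with siEWSR1 (0.461) and −0.01 with siFLI1 (0.844) for EIF2AK1 (HRI). The EIF2AK3 call with siFLI1 was lost in 6 of 15 alternative settings, among them quantile normalization and leaving out either siFLI1 library or either siNeg library (adjusted p above 0.05, log2 change 0.0978 to 0.2338). Of this list, lower calls with siFLI1 numbered 7 without siFLI1 replicate 1 or siNeg replicate 1, higher calls with siFLI1 numbered 2 without siFLI1 replicate 2, siNeg replicate 1 or siNeg replicate 2, and higher calls with siEWSR1 numbered 1 without siEWSR1 replicate 1 or siNeg replicate 1.

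Genes of the other branches of the ER stress response were called in both directions. Of 26 genes of the IRE1 and ATF6 branches and the ER chaperones, all tested, 8 were lower and 7 higher with siEWSR1 (median log2 change 0.02), and 9 were lower and 9 higher with siFLI1 (median 0.07). With siEWSR1 that is 30.8% lower and 26.9% higher, beside 31% and 33.2% of all tested genes, and with siFLI1 34.6% in each direction, beside 29.6% and 35.7%, so the list's counts were near those of all tested genes. Without siNeg replicate 1 the higher calls with siEWSR1 numbered 4. XBP1, the factor that IRE1 splices, had 16.1 and 16.3 FPKM with siEWSR1, 19.1 and 21.9 FPKM with siFLI1, and 38.1 and 36.2 FPKM with siNeg (−1.17 with siEWSR1, limma, adjusted p = 4.36e-05, and −0.84 with siFLI1, adjusted p = 0.000129). ERN1, which encodes IRE1, had log2 changes of −0.89 with siEWSR1 (adjusted p = 0.000397) and −0.90 with siFLI1 (adjusted p = 0.000339). The ER lectin chaperone CALR rose, with 389 and 390.4 FPKM with siEWSR1, 377 and 390.1 FPKM with siFLI1, and 258 and 264 FPKM with siNeg (0.58 with siEWSR1, adjusted p = 0.000123, and 0.55 with siFLI1, adjusted p = 0.000127). HSPA5 (BiP), the main ER chaperone, named after its value was seen, rose by 0.43 with siEWSR1 (adjusted p = 0.00179) and 0.59 with siFLI1 (adjusted p = 0.000408). The ER chaperone gene HSP90B1, also named after its value was seen, went the other way. Its log2 changes were −0.42 with siEWSR1 (adjusted p = 0.00115) and −0.37 with siFLI1 (adjusted p = 0.00184). Among other genes of the list, PDIA6 was lower and CANX higher with each siRNA, so no single direction held for the chaperones.

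Other known ATF4 targets moved with the 10 genes for the most part. Of 46 such genes, a list drawn up with earlier results of these data known, 45 were tested, and 37 were lower and 4 higher with siEWSR1 (median log2 change −1.50), 36 lower and 5 higher with siFLI1 (median −1.40). The lower share was 82.2% with siEWSR1, beside 31% of all tested genes, and 80.0% with siFLI1, beside 29.6%. CTH, the last enzyme of transsulfuration to cysteine, had 3.60 and 3.53 FPKM with siEWSR1, 3.37 and 3.69 FPKM with siFLI1, and 51.3 and 44.6 FPKM with siNeg, 11.9-fold lower with siEWSR1 and 12.0-fold with siFLI1 (limma, adjusted p = 2.33e-06 with siEWSR1 and 1.49e-06 with siFLI1). The mitochondrial enzymes PCK2 and ALDH1L2 fell too, with log2 changes of −3.46 and −2.91 with siEWSR1 and of −3.24 and −2.82 with siFLI1, and the glycine transporter gene SLC6A9 had log2 changes of −2.90 with siEWSR1 and −2.59 with siFLI1. Among the genes called against that direction, the secreted stress factor GDF15 rose, with 8.77 and 7.73 FPKM with siEWSR1, 12.7 and 12.8 FPKM with siFLI1, and 4.87 and 3.25 FPKM with siNeg (0.96 with siEWSR1, adjusted p = 0.0024, and 1.56 with siFLI1, adjusted p = 0.00027). NUPR1, a stress-induced chromatin factor, had 36.8 and 44.4 FPKM with siEWSR1, 66.3 and 77.9 FPKM with siFLI1, and 36.5 and 28.5 FPKM with siNeg, and its rise of 1.14 with siFLI1 (adjusted p = 0.000669) differed from the 0.32 with siEWSR1 (adjusted p = 0.0960) in the direct comparison (−0.82, adjusted p = 0.0389). That difference was called in 5 of 15 alternatives and was lost on leaving out any single library, and the rise with siEWSR1 was called without siEWSR1 replicate 1 (0.46), without siNeg replicate 1 (0.50) and with quantile normalization (0.45).

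**Figure D4:**
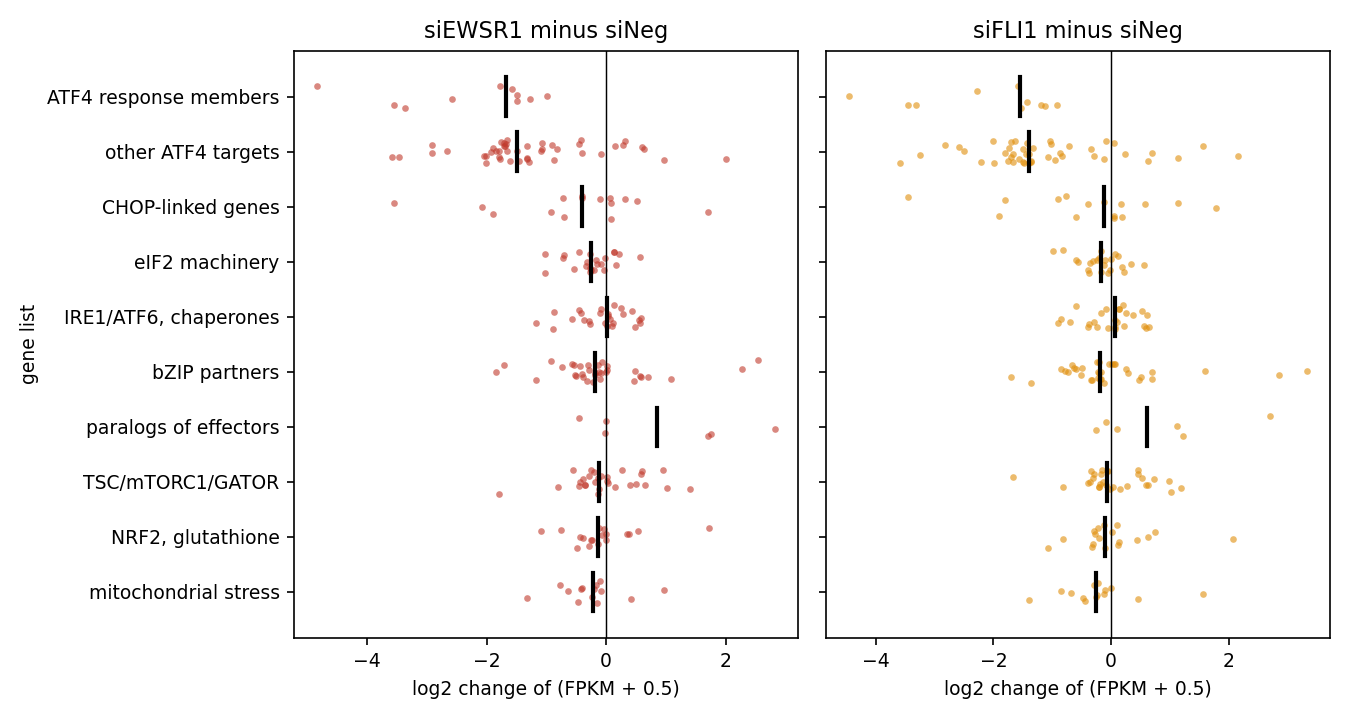
Log2 changes of every tested gene of the related lists with siEWSR1 and siFLI1, beside the 10 genes, with the median of each list as a black bar and lists running down the page. The list of other ATF4 targets lies mostly below 0, and the IRE1, ATF6 and chaperone list is centred near 0.

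Genes that CHOP is known to control or to act with were mixed. Of 16 genes, 15 were tested, among them TRIB3, and 8 were lower and 2 higher with siEWSR1 (median −0.40), 7 lower and 3 higher with siFLI1 (median −0.12). The lower share was 53.3% with siEWSR1, beside 31% of all tested genes, and 46.7% with siFLI1, beside 29.6%. CARS, WARS and NUPR1 are also among the other ATF4 targets above, and PPP1R15A is also in the eIF2 list, so these shares are not separate from those lists. Without the low-expressed genes (mean under 5 FPKM) the higher calls with siEWSR1 numbered 1, and with quantile normalization 4. PMAIP1, which encodes the death factor NOXA, had log2 changes of −2.07 with siEWSR1 and −1.9 with siFLI1. BCL2L11, which encodes the death factor BIM, rose instead, with 4.43 and 5.26 FPKM with siEWSR1, 4.98 and 5.32 FPKM with siFLI1, and 1.29 and 1.01 FPKM with siNeg (1.70 with siEWSR1, limma, adjusted p = 6.33e-05, and 1.78 with siFLI1, adjusted p = 4.43e-05). The oxidase gene ERO1B had log2 changes of −0.93 with siEWSR1 and −0.90 with siFLI1, and the caspase gene CASP4 rose by 0.52 with siEWSR1 and 0.57 with siFLI1.

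Among 37 bZIP factors that can pair with ATF4 or CHOP or are related to them, 34 were tested, and 13 were lower and 8 higher with siEWSR1 (median −0.19), 15 lower and 8 higher with siFLI1 (median −0.20). The lower share was 38.2% with siEWSR1 and 44.1% with siFLI1, and the higher share 23.5% with each, where all tested genes had 31% lower and 33.2% higher with siEWSR1, and 29.6% lower and 35.7% higher with siFLI1. C/EBP partners went both ways. CEBPG had 9.72 and 9.86 FPKM with siEWSR1, 9.80 and 9.81 FPKM with siFLI1, and 35.8 and 30.3 FPKM with siNeg, a log2 change of −1.70 with each siRNA (limma, adjusted p = 1.81e-05 with siEWSR1 and 1.46e-05 with siFLI1). CEBPA had 4.08 and 5.21 FPKM with siEWSR1, 7.43 and 9.38 FPKM with siFLI1, and 0.367 and 0.396 FPKM with siNeg (2.54 with siEWSR1, adjusted p = 2.99e-05, and 3.33 with siFLI1, adjusted p = 9.50e-06), and was lower with siEWSR1 than with siFLI1 in the direct comparison (−0.79, adjusted p = 0.0406), a call that was lost on leaving out any single library (−0.95 to −0.63). CEBPB and CEBPG were thus lower and CEBPA higher in the same libraries. CEBPA was below the pseudocount of 0.5 FPKM in both siNeg libraries. It passed the filter on low values through the targeting libraries alone, and the pseudocount understates its change. The AP-1 gene JUNB rose by 2.27 with siEWSR1 and 2.85 with siFLI1, and JDP2, an AP-1 repressor, had log2 changes of −1.84 with siEWSR1 and −1.36 with siFLI1.

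Close relatives of the effectors were examined as 7 genes, of which 6 were tested, and 1 was lower and 3 were higher with each siRNA. That is 16.7% lower and 50% higher of only 6 genes. All tested genes had 31% lower and 33.2% higher with siEWSR1, and 29.6% lower and 35.7% higher with siFLI1. SESN3 had 71.3 and 91.0 FPKM with siEWSR1, 66.7 and 81.6 FPKM with siFLI1, and 10.7 and 11.2 FPKM with siNeg, 7.10-fold higher with siEWSR1 and 6.51-fold with siFLI1 (limma, adjusted p = 1.71e-05 with siEWSR1 and 1.60e-05 with siFLI1). SESN1 had 4.52 and 4.97 FPKM with siEWSR1, 2.92 and 3.36 FPKM with siFLI1, and 1.09 and 1.01 FPKM with siNeg (1.76 with siEWSR1, adjusted p = 2.62e-05, and 1.23 with siFLI1, adjusted p = 8.22e-05), and was higher with siEWSR1 than with siFLI1 (0.53, adjusted p = 0.0404), a call lost on leaving out any library but siEWSR1 replicate 1. Both other sestrins were therefore higher in the libraries in which SESN2 was lower, and per length SESN3 exceeded SESN2 with siEWSR1 and siFLI1 and lay under it with siNeg. TRIB2 had 16.1 and 18.6 FPKM with siEWSR1, 11 and 12.0 FPKM with siFLI1, and 4.71 and 5.28 FPKM with siNeg (1.70 with siEWSR1, adjusted p = 2.75e-05, and 1.13 with siFLI1, adjusted p = 0.000107), against the fall of TRIB3. TRIB1 had 7.01 and 7.0 FPKM with siEWSR1, 7.93 and 8.21 FPKM with siFLI1, and 10.4 and 9.13 FPKM with siNeg (−0.45 with siEWSR1, adjusted p = 0.00225, and −0.26 with siFLI1, adjusted p = 0.0224), a siFLI1 call lost without siFLI1 replicate 1 (−0.23), siFLI1 replicate 2 (−0.28) or siNeg replicate 1 (−0.17) and with no filter on low values. CHAC2 stood at 2.82 and 3.19 FPKM with siEWSR1, 3.197 and 3.30 FPKM with siFLI1, and 2.98 and 3.05 FPKM with siNeg, with 95% intervals of −0.20 to 0.19 with siEWSR1 and −0.10 to 0.29 with siFLI1 for its log2 changes, whose signs turned under some settings. ASNSD1, which shares a domain with ASNS, stood at 14.8 and 15.6 FPKM with siEWSR1, 13.97 and 15.0 FPKM with siFLI1, and 16.1 and 14.7 FPKM with siNeg, with intervals of −0.19 to 0.15 with siEWSR1 and −0.25 to 0.08 with siFLI1, and its sign with siEWSR1 turned too. DDIT4L was at 0.034–0.356 FPKM and was not tested.

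**Figure D5:**
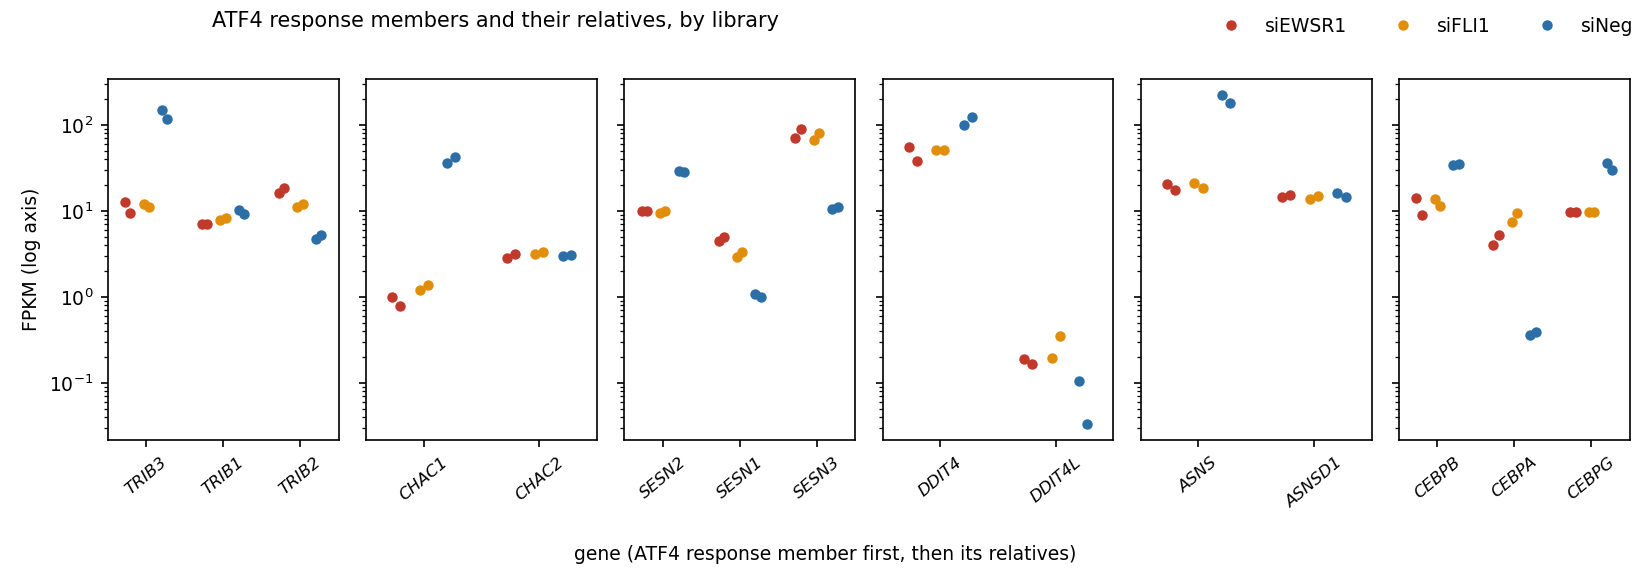
FPKM (log axis) of TRIB3, CHAC1, SESN2, DDIT4, ASNS and CEBPB, each leftmost in its panel, beside their relatives, with 1 point per library and siEWSR1, siFLI1 and siNeg from left to right within each gene. SESN3 sits at 66.7–91.0 FPKM with the targeting siRNAs and at 10.7–11.2 FPKM with siNeg, opposite in direction to SESN2, while CHAC2 and ASNSD1 keep nearly the same level in the 3 groups.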

How the data were processed

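TC32 cells transfected with siEWSR1, siFLI1 or siNeg were sequenced as 2 libraries per group. The deposited files hold gene-level FPKM made by the authors, with the bounds of a 95% interval. Per the submitters' processing notes, TopHat2 2.0.13, Cufflinks and Cuffdiff were used with hg19. Not given in the sources used here were the annotation, the kit, the strand setting and the handling of multiply mapped reads. Since FPKM scales to a library total, abundant RNAs can shift the rest. The files hold no counts. If the distance to the deposited bounds is read as 2 times FPKM over the square root of the fragments, the libraries held between 15159073 and 16298374 fragments each, and between 12079 and 12741 genes had at least 1 FPKM. Correlations of log2 values were 0.9706–0.9788 within a group, 0.9715–0.9756 between siEWSR1 and siFLI1 and 0.8943–0.9131 between either and siNeg.

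From the 27442 rows of each file, values of the 380 symbols on several rows were summed, and gene starts were converted to count from 1. Genes that reached 1 FPKM in 2 or more of the 6 libraries entered 1 fit of all libraries with limma 3.58.1 (R 4.3.3) on log2(FPKM + 0.5), with an intensity trend and 3 residual degrees of freedom, and p-values were adjusted by Benjamini-Hochberg over all 13043 genes. The script was tested on simulated data. The 10 genes, the related lists and the rule for naming genes (from each list the 4 largest changes called with both siRNAs, up to 3 called against the list's direction, all relatives of the effectors, and the 3 nearest profiles of 4 genes) were chosen with earlier results of these data known. GENCODE and RefSeq sequences are of GRCh38, and no coordinate was moved between builds. The alternatives were other pseudocounts, filters, normalization, variance models and samples, the replicate number as a block, and leaving out each library. Not every gene that the rule names is reported here.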

Additional observations from a re-analysis of the deposited data

How the results depend on the processing

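All 10 genes were called lower with siEWSR1 and with siFLI1 in each of 15 alternatives, the highest adjusted p being 0.0331 (limma, DDIT4 with siFLI1), and none was called between siEWSR1 and siFLI1 in any. Replicate numbers are shared by label only: deviations from the group means correlated at 0.0689 (siEWSR1 and siFLI1), -0.137 (siEWSR1 and siNeg) and -0.053 (siFLI1 and siNeg). With the number as a block, 10 of the 10 genes stayed lower with each siRNA, 57 tested genes were higher and 262 lower with siEWSR1 than with siFLI1, and the other counts moved by under 1.5 times. Of direct log2 differences, signs turned with quantile normalization for ATF4 (0.018) and ASNS (0.0008). Leaving out single libraries gave ranges across 0 for TRIB3 (-0.29 to 0.10), CEBPB (-0.47 to 0.18), DDIT4 (-0.41 to 0.11) and ASNS (-0.14 to 0.057), highest without siEWSR1 replicate 2, and for SESN2 (-0.015, without siFLI1 replicate 1, to 0.094). Of log2 changes with siEWSR1 against siNeg, leaving out single libraries gave -0.082 to 0.071 for CHAC2 and -0.081 to 0.042 for ASNSD1. Quantile normalization turned ASNSD1 with siEWSR1 (0.024), CHAC2 with siFLI1 (-0.11), and KRT14 with siEWSR1 (-0.011) and siFLI1 (-0.066). A mean of at least 5 FPKM, with fewer genes tested, left 2518 genes higher and 3110 lower with siEWSR1, and 2787 higher and 2910 lower with siFLI1. Higher calls were then 44.7% of calls with siEWSR1 and 48.9% with siFLI1, against 51.7% and 54.7% in the main fit. With quantile normalization they were 47.8% with siEWSR1 and 46.5% with siFLI1, so which direction held more calls depended on the setting. Between siEWSR1 and siFLI1, where 103 genes were higher and 401 lower, the counts were 66 and 136 with no filter, 185 and 640 with a robust trend, and 22 and 172 with only these groups in the fit, and 209 were higher with quantile normalization (37.9% of calls, against 20.4%). Leaving out single libraries gave 3–107 higher and 1–621 lower, with a lone library assumed to vary like the other groups. The causes were not tested. FPKM without counts limits precision for genes as low as CHAC1 with siEWSR1.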

Other observations

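Further groups of genes border on the ATF4 response, and their values were read in the same limma fit. Of 30 genes of the TSC, mTORC1 and GATOR complexes, on which DDIT4 and SESN2 act, 29 were tested, and 12 were lower and 8 higher with siEWSR1, 9 lower and 9 higher with siFLI1 (5 lower without siNeg replicate 1). That is 41.4% lower and 27.6% higher with siEWSR1, where all tested genes had 31% and 33.2%, and 31.0% in each direction with siFLI1, where all tested genes had 29.6% and 35.7%, so the counts with siFLI1 were near those of all tested genes. EIF4EBP1, a translation repressor that mTORC1 phosphorylates and ATF4 induces, had 46.5 and 33.6 FPKM with siEWSR1, 44.1 and 42.8 FPKM with siFLI1, and 144 and 133 FPKM with siNeg (log2 change −1.80 with siEWSR1, limma, adjusted p = 9.94e-05, and −1.66 with siFLI1, adjusted p = 0.000117). The Rag GTPase genes RRAGB and RRAGC rose by 1.41 and 0.95 with siEWSR1 and by 1.20 and 1.02 with siFLI1, and FLCN, which acts on Rag GTPases, rose by 1.01 with siEWSR1 and 0.99 with siFLI1.

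The NRF2 and mitochondrial lists that follow stand beside 31% lower and 33.2% higher of all tested genes with siEWSR1. With siFLI1 these all-gene shares were 29.6% lower and 35.7% higher. Of 18 NRF2 targets and glutathione genes, 9 were lower and 4 higher with siEWSR1, 8 lower and 4 higher with siFLI1. The lower shares were 50% with siEWSR1 and 44.4% with siFLI1. The lower calls with siFLI1 numbered 3 without siFLI1 replicate 1 and 5 without siNeg replicate 1, without siNeg replicate 2 or with no filter. The cystine transporter gene SLC7A11, which ATF4 and NRF2 both induce, had log2 changes of −1.10 with siEWSR1 and −1.08 with siFLI1, and GGCT, which makes oxoproline from gamma-glutamyl amino acids, of −0.76 with siEWSR1 and −0.82 with siFLI1. HMOX1, heme oxygenase, had 8.85 and 9.45 FPKM with siEWSR1, 11.1 and 12.5 FPKM with siFLI1, and 2.41 and 2.45 FPKM with siNeg, a rise of 1.72 with siEWSR1 and 2.06 with siFLI1. Of 15 mitochondrial stress genes, 14 were tested, and 10 were lower and 2 higher with siEWSR1 (5 lower without siNeg replicate 2), 8 lower and 2 higher with siFLI1, lower shares of 71.4% with siEWSR1 and 57.1% with siFLI1. The median log2 change of the mitochondrial list was small, −0.22 with siEWSR1 and −0.25 with siFLI1. The protease gene LONP1 had log2 changes of −1.32 with siEWSR1 and −1.40 with siFLI1 and the chaperone gene HSPA9 of −0.77 with siEWSR1 and −0.85 with siFLI1. The higher genes were GDF15 and SPG7 with each siRNA. LONP1 and GDF15 are also among the other ATF4 targets.

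The small nucleolar RNAs with the profiles nearest to CHAC1 were listed at 0 in all siEWSR1 and siFLI1 libraries, while SNORA101B had 8.61 and 8.57 FPKM and SNORA65 6.95 and 13.8 FPKM with siNeg. Both passed the filter on low values through the siNeg libraries alone, and their closeness to CHAC1 depends on the pseudocount.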
